A study of Mus musculus with 48 samples.

Results

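The C-type lectin receptors described here were 10 genes chosen by name, Clec4a1, Clec4a2, Clec4a3, Clec4d, Clec4e, Clec4n, Clec7a, Clec12a, Clec10a, and Clec9a, of 54735 genes counted. All 10 had a row in each of 24 RNA-seq libraries. The libraries came from monocytes, pre-RPMs, and red pulp macrophages (RPMs), which were sorted as Ly6Glo CD11bhi F4/80-, Ly6Glo CD11bhi F4/80lo, and Ly6Glo CD11blo/- F4/80hi spleen cells, respectively. Each cell type was taken from 4 WT mice and from 4 mice labelled Il1rl1-/-, all Balb/c males aged 10 weeks, with no treatment named in the labels and 1 mouse per library. Il1rl1 encodes the receptor of IL-33, and the knockout was on the same background. Which exons it removes was not given in the sources used here. The study asked how IL-33 signaling shapes the passage from monocyte to RPM. Total counts per library were between 3562367 and 6559454 (median 4728764.5), and 3 counts, the limit that a count of 0 allows, stood for 0.457 to 0.842 CPM (counts per library scaled to a common total). That range is before the TMM normalization factors that were applied to all other CPM given here. Intervals on counts cover counting error only.

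C-type lectin receptors are surface proteins of myeloid cells that bind sugars, lipids, or parts of dead cells through a shared fold. The activating members, Dectin-1 (Clec7a), Dectin-2 (Clec4n), Mincle (Clec4e), and MCL (Clec4d), signal through the kinase Syk and the adaptor Card9, directly or by way of the Fc receptor gamma chain, and are best known for recognising fungi and mycobacteria. The inhibitory members, such as DCIR (Clec4a2) and MICL (Clec12a), carry a motif that recruits phosphatases. RPMs are the macrophages of the spleen that take up aged red blood cells and recycle their iron.

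Il1rl1 was counted in every library, and its counts went against the genotype label in monocytes and pre-RPMs. In monocytes of mice 1 to 4, it had 28, 19, 12, and 13 counts in WT and 51, 73, 71, and 64 in the other genotype. The counts were 18, 15, 13, and 24 against 50, 76, 42, and 65 in pre-RPMs, and 5, 9, 7, and 13 against 1, 7, 3, and 6 in RPMs. Set against WT, its log2 fold change came to 2.13 (SE 0.23, adjusted p = 0.00882 in edgeR) in monocytes and 1.52 (SE 0.20, adjusted p = 0.00107 in edgeR) in pre-RPMs, and it was too low for the fit in RPMs (exact 2-sided permutation test, p = 0.0857). Counts summed over all exons cannot show whether the allele is disrupted, so every direction between genotypes given here refers to the labels.

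RPM markers followed the sort, and transcripts used as markers of other cells were present too. The summed CPM of 11 RPM markers was 7652 ± 838 in WT RPMs, 231 ± 92.6 in WT pre-RPMs, and 94.0 ± 36.3 in WT monocytes (mean ± SD, n = 4). Monocyte libraries stood apart from each other. Their summed CPM over 6 NK cell markers was 1596, 1855, 562, and 1054 in WT mice 1 to 4 and 1520, 1127, 501, and 796 in those labelled Il1rl1-/-, with Gzma the most abundant of them, against 71.0 to 140 in WT pre-RPMs. The summed CPM over 11 monocyte markers ran the other way, at 1930, 1624, 4009, and 3199 in WT and 2040, 2506, 4504, and 3599 in the other genotype. Monocyte libraries of mice 1 and 2 thus held the most NK cell and the least monocyte signal in both genotypes. Monocyte markers did not set monocytes above pre-RPMs. Their mean sum was 2691 CPM in monocytes and 3643 CPM in pre-RPMs of WT, and 3162 and 4240 CPM in the other genotype, with overlapping ranges. The monocyte libraries of all mice also held transcripts of neutrophil markers, with S100a9 the most abundant. Their summed CPM over 13 markers was 858 to 2584 in WT and 1058 to 2122 in the other genotype. The same sum was 274 to 552 in the 8 pre-RPM libraries and 2.62 to 23.4 in the 8 RPM libraries. Erythroid markers, led by Hbb-bs, summed to 1851, 1177, 23104, and 9545 CPM in WT RPMs and 2591, 813, 10890, and 14841 CPM in those labelled Il1rl1-/-, and to 628 CPM in the WT pre-RPM library of mouse 3. In bulk libraries, fewer cells of a type and less RNA per cell cannot be told apart.

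Of the 10 genes, 9 lie on chromosome 6 of GRCm38. Clec4a1, Clec4a3, Clec4a2, Clec4n, Clec4d, and Clec4e, in this order, share a stretch of 368 kb from 122921848 to 123289870, and Clec12a, Clec9a, and Clec7a share 130 kb from 129342691 to 129472779. Clec10a lies on chromosome 11, from 70156197 to 70170834. RefSeq (GRCm38.p6, a C57BL/6J reference, whereas these mice were Balb/c) gave the start site of 8 of them, not of Clec4n and Clec10a. The 250 bases before the start are shown for the pair of genes that fell most in WT RPMs, Clec7a and Clec4e, and for Clec4a1 and Clec4a3, which were lower by less than the fold threshold. Capitals mark GAGGAA or its reverse complement TTCCTC, the core letters bound by the myeloid factor PU.1, searched on both strands.
Clec7a, chr6:129472786-129473035, minus strand: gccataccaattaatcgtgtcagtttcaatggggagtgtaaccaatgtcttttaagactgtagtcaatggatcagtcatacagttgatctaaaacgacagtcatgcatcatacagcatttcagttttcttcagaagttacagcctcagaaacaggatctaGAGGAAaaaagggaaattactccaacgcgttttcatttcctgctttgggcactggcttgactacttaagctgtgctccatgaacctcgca
Clec4e, chr6:123289872-123290121, minus strand: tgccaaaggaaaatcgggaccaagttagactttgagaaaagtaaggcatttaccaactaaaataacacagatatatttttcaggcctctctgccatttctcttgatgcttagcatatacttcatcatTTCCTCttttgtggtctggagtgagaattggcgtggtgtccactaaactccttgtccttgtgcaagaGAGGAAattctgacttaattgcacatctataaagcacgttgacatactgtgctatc
Clec4a1, chr6:122921598-122921847, plus strand: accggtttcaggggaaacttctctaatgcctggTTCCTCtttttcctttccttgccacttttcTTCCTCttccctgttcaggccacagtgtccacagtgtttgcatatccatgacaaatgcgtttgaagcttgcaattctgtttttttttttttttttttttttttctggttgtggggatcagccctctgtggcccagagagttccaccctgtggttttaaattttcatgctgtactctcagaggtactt
Clec4a3, chr6:122952265-122952514, plus strand: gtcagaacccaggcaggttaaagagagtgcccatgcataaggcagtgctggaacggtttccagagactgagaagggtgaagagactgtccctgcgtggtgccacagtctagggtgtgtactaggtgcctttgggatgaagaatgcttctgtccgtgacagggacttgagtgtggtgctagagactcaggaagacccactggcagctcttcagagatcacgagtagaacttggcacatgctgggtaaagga
These letters occurred in 23.3% of 32851 windows of this length before RefSeq start sites. Among the members they were found 2 times for Clec4e, Clec4a1, and Clec12a, and 1 time for Clec7a and Clec4d. They were not found for Clec4a2, Clec4a3, and Clec9a. The windows of Clec12a and Clec4a2 overlap exons of the same gene in the annotation used for the gene spans given here, which starts them further upstream, and that of Clec9a overlaps an exon of Clec1b. The C/EBP letters TTGCNNAA were found for Clec4e and Clec12a (9.56% of windows), the AP-1 letters TGANTCA for Clec12a alone (6.75%), and the GATA letters AGATAA for none of the 8 (9.99%). A match describes these letters in the reference, not a bound site.

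Per kb of exon, the receptors divided into a few abundant and several scarce ones. In WT monocytes and WT pre-RPMs, Clec7a was the highest of the 10, at 39.6 ± 22.6 and 81.1 ± 5.14 CPM per kb (mean ± SD, n = 4). Clec4a1 and Clec4a3 came next, at 22.4 ± 12.5 and 21.8 ± 13.8 CPM per kb in WT monocytes and at 40.4 ± 5.01 and 46.5 ± 6.59 in WT pre-RPMs. In WT RPMs the highest was Clec4n, at 69.0 ± 2.82 CPM per kb, followed by Clec4a3 at 28.9 ± 3.67 and Clec4a1 at 27.8 ± 9.01. Clec4e, Clec4d, Clec9a, and Clec10a stayed at or below 3.55 CPM per kb in every group mean. The summed level of the 10 genes was 102 ± 53.5, 198 ± 9.82, and 147 ± 14.0 CPM per kb in WT monocytes, pre-RPMs, and RPMs (mean ± SD, n = 4), and Clec4n held 1.45%, 1.52%, and 47.1% of it. Clec7a held 37.8%, 41.2%, and 1.72%. The sums in the other genotype were 106 ± 40.9, 207 ± 8.27, and 173 ± 12.2 CPM per kb, with Clec4n at 0.955%, 1.21%, and 52.3% and Clec7a at 36.3%, 35.1%, and 0.781%.

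**Figure D1:**
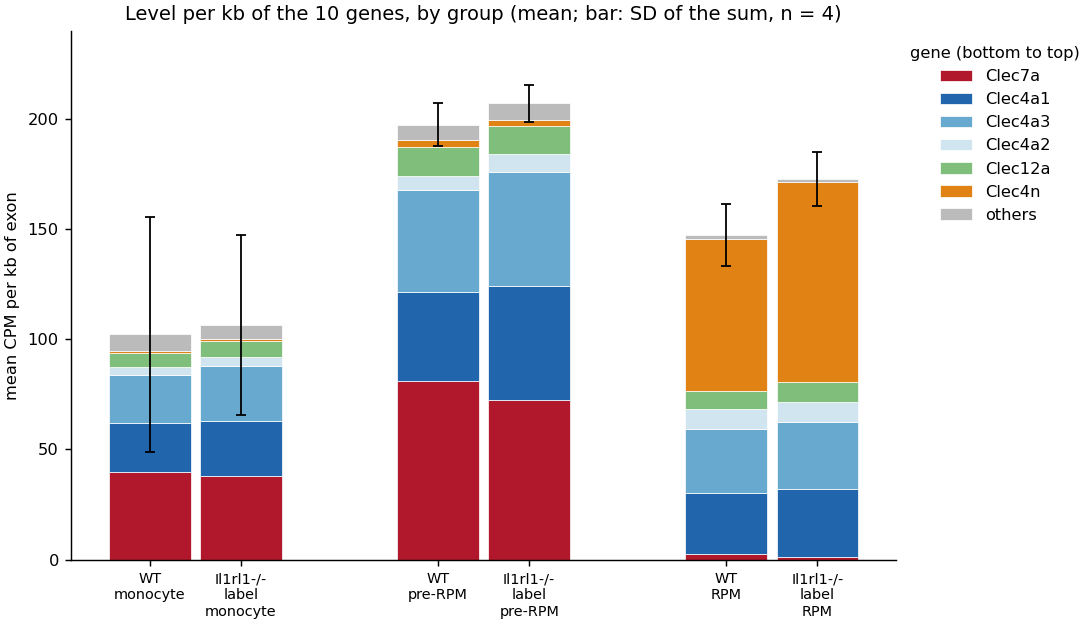
Mean CPM per kb of exon (y axis) of the C-type lectin receptor genes, stacked by gene, in each of the 6 groups (x axis). Error bars are the SD of the summed level (n = 4), and "others" are Clec4d, Clec4e, Clec9a, and Clec10a. Clec7a is the largest block in monocytes and pre-RPMs and nearly disappears in RPMs, where Clec4n is the largest.

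The comparison of RPMs with pre-RPMs asked which receptors differ between the mature macrophage and the cell sorted as its precursor. Among the activating receptors, Clec7a and Clec4e fell and Clec4n rose, with log2 fold changes of −5.02, −4.93, and 4.50 in WT, whereas those of the Clec4a genes and Clec12a lay between −0.73 and 0.55. Clec10a, the galactose-binding receptor MGL1, fell as well. In WT, 4 of 10 members passed the call rule for cell types (adjusted p under 0.01 and absolute log2 fold change above 1 in edgeR), 1 higher and 3 lower. The rule called 24.7% of 11239 genes, 14.0% higher and 10.7% lower. In the libraries labelled Il1rl1-/-, 5 of 9 tested members passed, 1 higher and 4 lower, beside 26.0% of 11437 genes (14.5% higher, 11.5% lower). The median log2 fold change of the tested members was −0.71 in WT and −0.78 in the other genotype, and that of all genes tested was −0.0012 and −0.0018. The CPM ranges of the groups did not overlap for 7 of 10 members in both genotypes, beside 46.5% and 49.3% of all genes tested.

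Clec7a, the beta-glucan receptor Dectin-1 (ENSMUSG00000079293, 129461591 to 129472779, minus strand), had 197, 223, 208, and 227 CPM in WT pre-RPMs and 6.80, 10.2, 3.93, and 4.99 CPM in WT RPMs of mice 1 to 4. In the other genotype it had 186, 197, 181, and 203 CPM in pre-RPMs and 3.52, 6.05, 1.53, and 2.74 CPM in RPMs. The lowest pre-RPM library was thus far above the highest RPM library. Its log2 fold change was −5.02 (SE 0.21, adjusted p = 2.84e-10 in edgeR) in WT and −5.74 (SE 0.21, adjusted p = 5.72e-12 in edgeR) in the other genotype. It stayed called in every alternative run, with a WT log2 fold change from −5.32 to −4.86 when each library was left out in turn.

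Clec4n, the alpha-mannan receptor Dectin-2 (ENSMUSG00000023349, 123229843 to 123247021, plus strand), ran opposite to Clec7a. It had 3.29, 2.61, 6.76, and 4.56 CPM in WT pre-RPMs and 100.4, 97.6, 102, and 92.6 CPM in WT RPMs. Those labelled Il1rl1-/- had 5.76, 1.56, 2.70, and 4.29 CPM in pre-RPMs and 124, 111, 148, and 131 CPM in RPMs. Again the RPM libraries were all above the pre-RPM libraries, and the WT RPM libraries lay close together. The log2 fold change was 4.50 (SE 0.18, adjusted p = 2.31e-10 in edgeR) in WT and 5.18 (SE 0.22, adjusted p = 2.77e-11 in edgeR) in the other genotype. Over the 6 groups, its order was RPMs labelled Il1rl1-/-, WT RPMs, both pre-RPM groups, and both monocyte groups, with neighbours overlapping among the pre-RPM and monocyte groups.

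Clec4e, the mycobacterial glycolipid receptor Mincle (ENSMUSG00000030142, 123281789 to 123289870, minus strand), had 8.22, 8.88, 7.26, and 5.99 CPM in WT pre-RPMs and only 0, 3, 0, and 1 counts in WT RPMs. The other genotype had 7.20, 10.6, 5.39, and 4.49 CPM in pre-RPMs and 0, 0, 1, and 2 counts in RPMs. No RPM library exceeded 3 counts. The summed counts of pre-RPMs were 34.2 times those of RPMs in WT (95% exact interval 13.03 to 128, adjusted p = 1.03e-06 in edgeR) and 47.8 times in the other genotype (16.01 to 235, adjusted p = 1.29e-06 in edgeR). The fitted log2 fold change moved with single RPM libraries. It was −4.93 in WT and ranged from −6.16, without the RPM library of mouse 2, to −4.53 with a library left out. Under the other label it was −5.33 and ranged from −6.27, without the RPM library of mouse 4, to −4.85, and Clec4e stayed called in all of these fits. Clec4d, or MCL, which pairs with Mincle and lies next to it (ENSMUSG00000030144, 123262111 to 123275265, plus strand), was scarce throughout. It had 3.76, 2.87, 3.25, and 3.12 CPM in WT pre-RPMs and 0.62, 1.198, 0.26, and 3.18 CPM in WT RPMs. The last of these, mouse 4, lay among the pre-RPM libraries. The log2 fold change of −1.28 (SE 0.47, adjusted p = 0.0356 in edgeR) was not called, and became −2.12 (adjusted p = 0.0014 in edgeR) without that library. In the other genotype Clec4d was too low for the fit, at means of 1.87 and 1.28 CPM (exact 2-sided permutation test, p = 0.343).

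No gene of the DCIR group was called in either genotype, nor was Clec12a, although Clec4a3 and Clec12a in both genotypes and Clec4a1 in the libraries labelled Il1rl1-/- were lower in RPMs without overlap of the ranges. Clec4a1 (ENSMUSG00000049037), related to DCIR, had 65.3, 60.8, 72.1, and 53.5 CPM in WT pre-RPMs and 35.9, 29.0, 60.98, and 47.4 CPM in WT RPMs, with overlapping ranges. Clec4a3 (ENSMUSG00000043832), another DCIR relative, had 57.1, 57.7, 74.8, and 57.3 CPM against 35.7, 34.3, 45.3, and 38.3 CPM, without overlap. Clec12a, the uric acid crystal receptor MICL (ENSMUSG00000053063, 129342691 to 129365303, plus strand), had 73.7, 81.5, 70.3, and 63.5 CPM against 43.9, 43.3, 43.2, and 44.5 CPM, also without overlap. Their log2 fold changes in WT were −0.55 (adjusted p = 0.0254), −0.69 (adjusted p = 0.000343), and −0.73 (adjusted p = 5.64e-05) in edgeR, so Clec4a3 and Clec12a passed the p threshold and not the fold threshold. The same differences in the other genotype were −0.76, −0.78, and −0.52 on the log2 scale. Clec4a2, the gene of DCIR itself (ENSMUSG00000030148, 123106428 to 123143999, plus strand), had 21.1, 14.4, 21.0, and 17.7 CPM in WT pre-RPMs and 24.7, 25.2, 37.7, and 22.5 CPM in WT RPMs. Every WT RPM library was higher, at a log2 fold change of 0.55 (SE 0.18, adjusted p = 0.0178 in edgeR), and the value in the other genotype was 0.19 (SE 0.11, adjusted p = 0.173 in edgeR), with overlap. Of the 50-base words of its exons, 6.69% also occur in other genes, most often in Clec4a4 (3.85%), so its counts are less certain.

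Clec10a (ENSMUSG00000000318) had 9.39, 9.66, 3.25, and 7.19 CPM in WT pre-RPMs and 2, 2, 1, and 1 counts in WT RPMs. Libraries labelled Il1rl1-/- had 12.2, 11.1, 8.09, and 9.76 CPM in pre-RPMs and 1, 0, 2, and 1 counts in RPMs. Here too no RPM library exceeded 3 counts. The summed counts of pre-RPMs were 22.3 times those of RPMs in WT (95% exact interval 9.93 to 61.8, adjusted p = 3.50e-06 in edgeR) and 52.2 times in the other genotype (20.05 to 193, adjusted p = 1.95e-08 in edgeR). Of its 50-base words, 8.49% also occur in its neighbour Mgl2. Clec9a, the dead-cell receptor DNGR-1 of type 1 dendritic cells (ENSMUSG00000046080, 129408862 to 129424763, plus strand), was low in all groups, and 5.59% of its exon bases overlap those of Clec1b on the same strand. It had 2.58, 5.22, 1.75, and 2.88 CPM in WT pre-RPMs against 2.47, 4.39, 1.31, and 2.496 CPM in WT RPMs. In the other genotype it had 2.88, 6.58, 3.89, and 5.86 CPM against 1.32, 3.27, 1.75, and 1.68 CPM. These ranges overlapped in both genotypes. The log2 fold change was −0.18 (SE 0.40, adjusted p = 0.736 in edgeR) in WT and −1.25 (SE 0.34, adjusted p = 0.00619 in edgeR) in the other genotype, where the call was lost with DESeq2 and without any of 5 of the 8 libraries (pre-RPMs of mouse 2 or 4, RPMs of mouse 1, 3, or 4). Of 8 markers of type 1 dendritic cells, whose summed CPM was 379 in WT pre-RPMs and 779 in WT RPMs, 2 of 5 tested were higher and 1 lower in WT RPMs. Their sums were 381 and 847 CPM in the other genotype, with 2 of 5 higher and 0 lower. Their most abundant gene in RPMs was Cadm1 (4.95 and 314 CPM), and Xcr1 had a mean of 0.400 to 1.54 CPM over the 6 groups. Their part in the level of Clec9a was not tested.

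**Figure D2:**
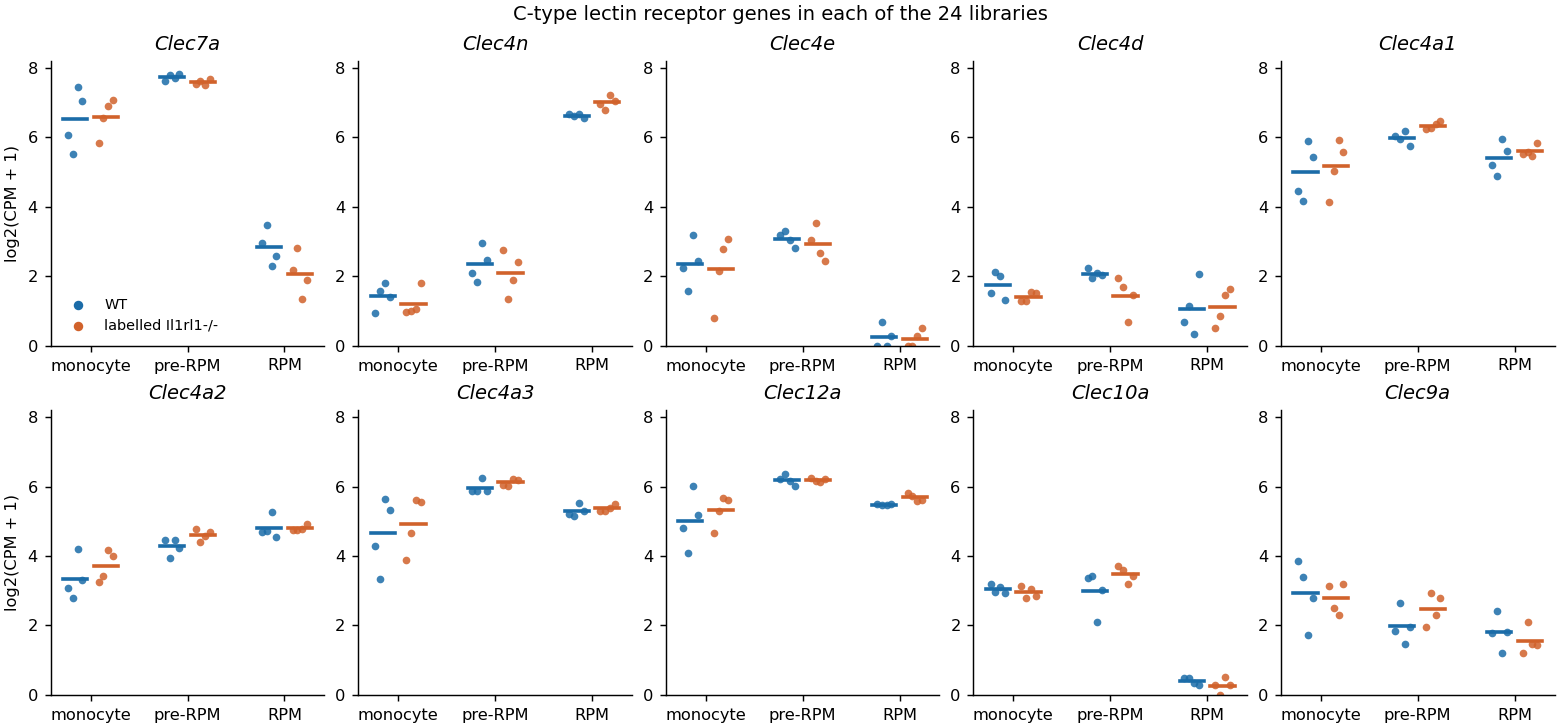
Each panel plots log2(CPM + 1) (y axis) of a C-type lectin receptor gene in monocytes, pre-RPMs, and RPMs (x axis), with a point for each of the 4 libraries per group and a line at their mean. Clec7a, Clec4e, and Clec10a drop in RPMs of both genotypes, Clec4n rises, and the monocyte points of Clec7a, Clec4a1, Clec4a3, and Clec12a are spread out.

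Transcripts used as markers of other cells also differed in this comparison. All 9 neutrophil markers tested were lower in RPMs than in pre-RPMs in both genotypes, and all 6 erythroid markers were higher. NK cell markers were lower for 4 of 5 tested in WT and 1 of 4 in the other genotype, T cell markers were higher for 3 of 4 and 1 of 4, and both basophil and mast cell markers tested in WT were lower. Of monocyte markers, 10 of 11 were lower in both genotypes, and 0 of 5 B cell markers were called. All 11 RPM markers were higher. Eosinophil markers summed to 84.7 and 334 CPM in WT pre-RPMs and RPMs and to 75.9 and 361 CPM in the other genotype, most of it from Ccr3 in RPMs (304 and 334 CPM), while Epx and Prg3 had 3 counts or fewer in every RPM library. Of these, 1 of 3 tested was higher in WT, and 1 was higher and 1 lower of 4 in the other genotype. Of 10 markers of type 2 and other dendritic cells, 4 of 9 tested were lower and 1 higher in WT, and 6 of 10 were lower in the other genotype. Cd209a went from 16.02 to 0.557 CPM in WT, and Mgl2 was at 0 in every RPM library labelled Il1rl1-/-. Itgax, the most abundant of this list, had means of 40.5 and 56.8 CPM in WT pre-RPMs and RPMs. In the other genotype its means were 81.0 and 60.4 CPM. The part of these cells in the changes of Clec4e, Clec7a, Clec10a, Clec4n, and other genes given below for this comparison was not tested. Without the 4 RPM libraries richest in erythroid transcripts (mice 3 and 4 of both genotypes, chosen after the data were seen), Clec7a, Clec4n, Clec4e, and Clec10a stayed called in both genotypes, with Clec10a at −6.45 and Clec4e at 0 counts in both RPM libraries that remained under the label Il1rl1-/-. Clec4d was then called in WT (−1.81, adjusted p = 0.0059 in edgeR), and Clec9a was not called in the other genotype (−1.05, adjusted p = 0.0572 in edgeR).

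In pre-RPMs compared with monocytes, most of the receptors had higher means, but none was called. Mean CPM went from 104 to 214 for Clec7a, from 34.9 to 62.9 for Clec4a1, from 29.0 to 61.7 for Clec4a3, and from 35.5 to 72.3 for Clec12a in WT. The log2 fold change was above 0 for 9 of 10 members in WT and for 8 of 9 tested in the other genotype, and its median log2 fold change was 0.89 and 0.86, against 0.0069 and −0.0018 over all genes tested. In WT, edgeR called 0 of 10 members, beside 3.57% of 11091 genes (0.316% higher, 3.25% lower), 8 had an unadjusted p under 0.05 (3540 over all genes), and DESeq2 called 0. In the libraries labelled Il1rl1-/-, edgeR called 0 of 9, beside 4.85% of 11196 genes (0.974% higher, 3.88% lower), 7 had an unadjusted p under 0.05 (3425 over all genes), and DESeq2 called 2. Over all genes, DESeq2 called 694 of 30652 in WT (149 higher) and 743 of 30420 in the other genotype (146 higher). The genes called higher, 35 in WT, became 149 with DESeq2, 220 in a single fit of 24 libraries, 305 without a filter on low counts, 90 with the mouse as a block, and 7 to 405 with a library left out (405 of 1041 calls without the monocyte library of mouse 3). The 109 genes called higher in the other genotype became 208 without the filter, 190 with the block, and 33 to 259 with a library left out (259 of 813 without the monocyte library of mouse 3). The share of genes called higher is thus not a fixed background here. With the mouse as a block, 2 members were called in the latter genotype, Clec4a1 (log2 fold change 1.097, adjusted p = 0.0028 in edgeR) and Clec4a3 (1.12, adjusted p = 0.00305 in edgeR). That fit called 751 of 11196 genes over all, 190 of them higher. The ranges did not overlap for 3 members in WT and 6 in the other genotype, beside 20.7% and 22.4% of all genes tested.

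The spread lay in the monocyte libraries. Clec7a had 66.5, 45.1, 175, and 131 CPM in WT monocytes and 55.9, 92.6, 119.6, and 133 CPM in those labelled Il1rl1-/-. Clec4a3 had 18.5, 9.15, 49.2, and 39.1 CPM in WT and 13.9, 24.1, 48.1, and 45.7 CPM in the other genotype. Clec12a had 27.0, 15.9, 63.7, and 35.5 CPM in WT and 24.6, 38.2, 50.03, and 47.8 CPM in the other genotype. For these 3 genes, mice 3 and 4 were above mice 1 and 2 in both genotypes, and mice 1 and 2 were those with the highest NK cell and lowest monocyte marker sums. Clec4a1 (21.1, 17.1, 59.1, and 42.3 CPM in WT) ran alike. Clec9a ran the other way in WT, at 13.6, 9.54, 2.31, and 5.93 CPM, and was 7.78, 4.70, 3.90, and 8.07 CPM in the other genotype. Clec10a was even, from 6.69 to 8.18 CPM in WT. Between pre-RPMs and monocytes, all 6 NK cell markers were called lower in both genotypes. Neutrophil markers were lower for 5 of 12 tested in WT and 7 of 12 in the other genotype, with 1 higher in each, monocyte markers were lower for 2 of 11 in each, and T cell markers for 1 of 4 in each. RPM markers were higher for 1 of 8 and 3 of 7, and eosinophil markers for 1 of 4 and 1 of 5. Basophil and mast cell markers were lower for 0 of 4 and 2 of 2, and those of type 2 and other dendritic cells for 1 of 9 and 0 of 10. The part of these cells in the values of the receptors was not tested. Without the WT monocyte library of mouse 3, 6 members were called in WT (Clec4a1, Clec4a2, Clec4a3, Clec7a, and Clec12a higher, Clec9a lower). That fit called 1041 of 11424 genes over all, 405 of them higher. Without the library of mouse 3 labelled Il1rl1-/-, 3 members were called (Clec4a1, Clec4a2, and Clec4a3), and without that of mouse 4 only Clec7a was. Over all genes, the fits called 813 of 11344 (259 higher) and 661 of 11325 (149 higher), respectively. Without the monocyte libraries of mice 1 and 2 and the WT pre-RPM library of mouse 3, left out after the data were seen, no member was called. Over all genes, 269 of 11269 were then called in WT and 321 of 11672 in the other genotype. The WT log2 fold change was then 0.26 for Clec4a1, 0.39 for Clec4a3, 0.50 for Clec7a, and 0.58 for Clec12a.

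**Figure D3:**
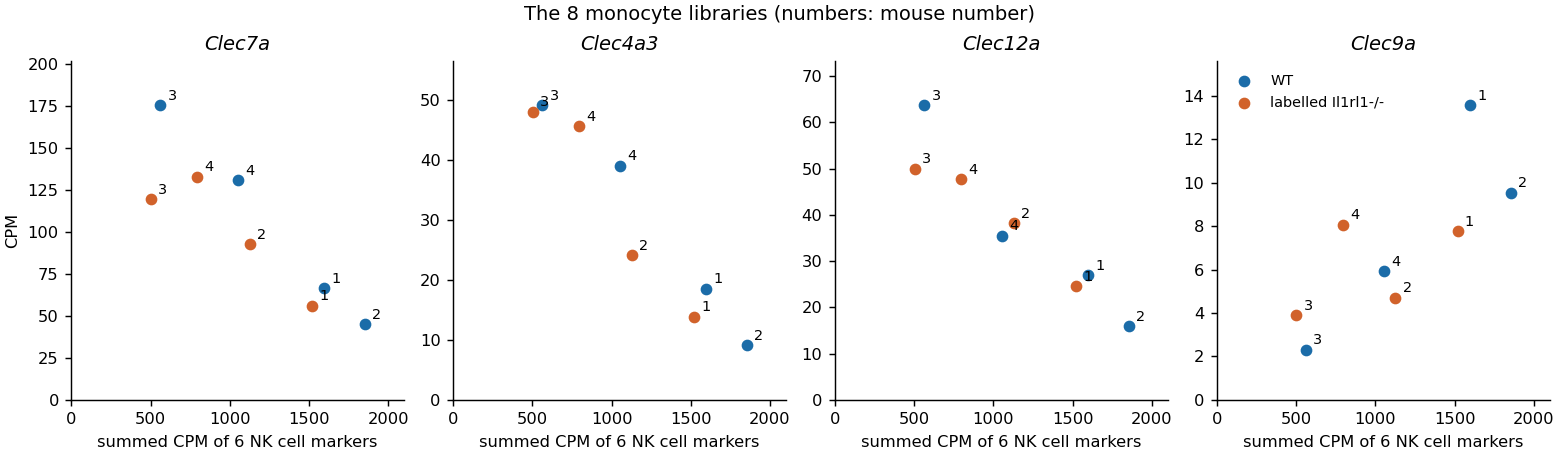
CPM of Clec7a, Clec4a3, Clec12a, and Clec9a (y axes) against the summed CPM of 6 NK cell markers (x axis) in the 8 monocyte libraries, each point labelled with its mouse number. Libraries of mice 1 and 2 lie to the right with low Clec7a, Clec4a3, and Clec12a in both genotypes.

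Between the libraries labelled Il1rl1-/- and WT, no member was called in any cell type at an adjusted p under 0.05. edgeR tested 8, 10, and 7 members in monocytes, pre-RPMs, and RPMs and called 0, 0, and 0, beside 0.0614%, 0.552%, and 0.233% of all genes tested (higher 0.0438%, 0.168%, and 0.152%, lower 0.0175%, 0.383%, and 0.0807%). At an unadjusted p under 0.05 there were 0, 3, and 2 members, beside 410 of 11405, 941 of 10698, and 811 of 11150 genes tested. DESeq2 called 0 members in each cell type. With the mouse number as a block, 0 members were called, and 27, 145, and 81 genes over all in place of 7, 59, and 26. The ranges did not overlap for 0, 1, and 2 members, beside 2.41%, 5.02%, and 4.56% of genes. Clec4n in RPMs was the clearest of them by range. Its 4 RPM libraries labelled Il1rl1-/- (111 to 148 CPM) were all above the WT libraries (92.6 to 102 CPM), at a log2 fold change of 0.37 (SE 0.11, unadjusted p = 0.00454, adjusted p = 0.384 in edgeR). Clec7a in RPMs was 6.48 ± 2.74 CPM in WT and 3.46 ± 1.91 CPM in the other genotype (mean ± SD, n = 4), overlapping, at −0.91 (SE 0.38, adjusted p = 0.659 in edgeR). Summed neutrophil markers lay at 12.9 to 23.4 CPM in WT RPMs and 2.62 to 6.81 CPM in the other genotype, with the 1 marker tested called lower. The summed CPM of 11 monocyte markers was 1523 ± 106 in WT RPMs and 1649 ± 87.7 in the other genotype (mean ± SD, n = 4). Most of it came from Csf1r, at 1430 and 1600 CPM. Among the scarcer monocyte markers, Fn1 (11.6 and 4.23 CPM) and Ccr2 (7.20 and 3.26 CPM) had lower means. Of 7 monocyte markers tested, 0 were called, and the part of these cells was not tested. Clec12a in RPMs did not overlap either, at 43.2 to 44.5 CPM against 47.2 to 55.1 CPM (0.19, adjusted p = 0.696 in edgeR). In pre-RPMs, Clec4a1 had 53.5 to 72.1 CPM in WT and 75.4 to 87.3 CPM in the other genotype, a log2 fold change of 0.33 (SE 0.10, unadjusted p = 0.00428, adjusted p = 0.240 in edgeR). There, 3 of 10 markers of type 2 and other dendritic cells and 1 of 11 monocyte markers were higher. NK cell markers were lower for 3 of 5 tested, basophil and mast cell markers for 1 of 2, and B cell markers for 1 of 5. The part of these cells was not tested either. Clec4d and Clec4n in monocytes and Clec4d, Clec4e, and Clec10a in RPMs were too low for the fit, with exact 2-sided permutation p from 0.2 to 0.857, where 0.0286 is the smallest that 4 against 4 can give.

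Whether the change from pre-RPM to RPM differed between genotypes was tested as an interaction. edgeR called 0 of 10 members (1 with an unadjusted p under 0.05, as had 914 over all genes, and 0 in DESeq2), beside 0.107% of 12150 genes (0.0658% higher, 0.0412% lower). The differences in log2 fold change were −0.71 for Clec7a (SE 0.34, adjusted p = 0.664 in edgeR), 0.69 for Clec4n (SE 0.35, adjusted p = 0.701 in edgeR), and −1.05 for Clec9a (SE 0.56, adjusted p = 0.718 in edgeR), so the call of Clec9a in only the libraries labelled Il1rl1-/- is not shown to differ from WT. For the change from monocyte to pre-RPM, edgeR and DESeq2 called 0 of 10, with 0 at an unadjusted p under 0.05 (454 over all genes), beside 0% of 11960 genes. Comparisons in a genotype share their pre-RPM libraries, and those between genotypes use the same libraries again.

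**Figure D4:**
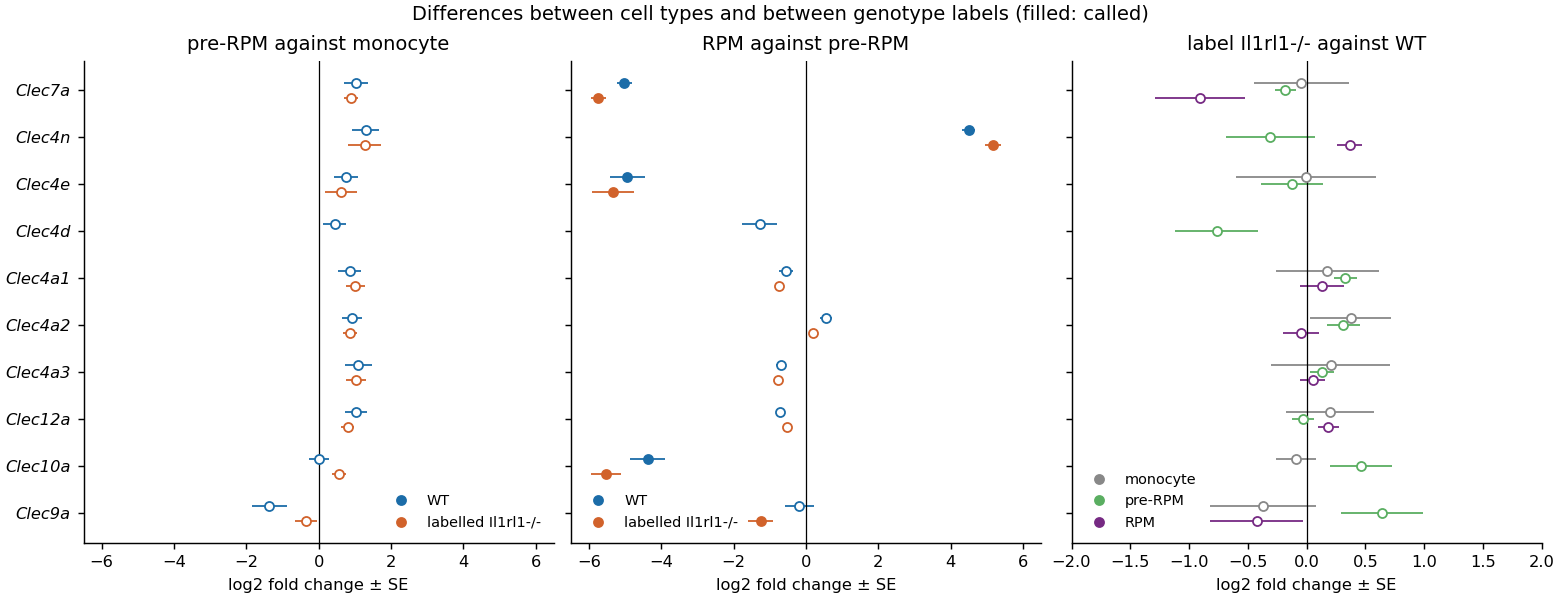
Log2 fold change ± SE (x axes) of each member (y axis) for pre-RPMs against monocytes, RPMs against pre-RPMs, and the label Il1rl1-/- against WT in each cell type. Filled points passed the call rule, which only Clec7a, Clec4n, Clec4e, and Clec10a did in both genotypes, in RPMs against pre-RPMs, and Clec9a in the libraries labelled Il1rl1-/-. Genes too low for a fit have no point.

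Neighbouring genes differed in pattern. In the stretch from Clec4a1 to Clec4e, 13 genes are annotated and 7 were kept by the expression filter over 24 libraries, namely the 6 members and Clec4b1. Clec4n, Clec4d, and Clec4e are adjacent, and at the change from pre-RPM to RPM Clec4n rose, Clec4e fell, and Clec4d was not called. Clec4b1, between Clec4a3 and Clec4a2, went from 4.05 to 10.3 CPM in WT (log2 fold change 1.33, SE 0.36, adjusted p = 0.0065 in edgeR). Clec4a4 stayed at or below 1.97 CPM in every group mean, and Clec4b2 at or below 0.449 CPM. In the stretch from Clec12a to Clec7a, 4 of 7 genes were kept. Clec1b, which encodes the podoplanin receptor CLEC-2, rose from 0.426 to 6.38 CPM in WT and from 0.422 to 5.03 CPM in the other genotype (log2 fold changes 3.79 and 3.45, adjusted p = 1.99e-05 and 8.16e-07 in edgeR), while Clec7a at the other end fell. Clec12b had no count in any library.

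Of 52 other C-type lectin genes, 24 were tested between RPMs and pre-RPMs in WT, 4 rose and 11 fell, and in the libraries labelled Il1rl1-/- 4 rose and 13 fell of 23 tested. Over all genes tested, 14.0% rose and 10.7% fell in WT, and 14.5% and 11.5% in the other genotype. The largest rise was that of Mrc1, the mannose receptor, from 19.6 ± 10.8 to 1017 ± 177 CPM in WT (mean ± SD, n = 4; 5.70 on the log2 scale, SE 0.31, adjusted p = 2.74e-09 in edgeR), and from 18.3 to 1137 CPM in the other genotype (5.95). Cd302 rose in both genotypes (1.72 and 2.06), Clec4b1 was called in WT alone, and Klrc1 in the other genotype alone (1.95), and the interaction test called neither difference. Among the falls were Clec5a, an activating receptor that uses the adaptor Tyrobp (−5.24 in WT, −6.16 in the other genotype), Cd93 (−5.02 and −6.74), and the scavenger receptor gene Colec12 (−5.06 and −4.92). Olr1, the oxidised LDL receptor, had a summed count 52.9 times as high in WT pre-RPMs as in WT RPMs (95% exact interval 14.2 to 443). In the libraries labelled Il1rl1-/-, Olr1 and Mgl2 were at 0 in all 4 RPM libraries, at least 39.1-fold and 18.8-fold lower, set against 3 counts over the group.

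The same list behaved differently between pre-RPMs and monocytes. In WT, 1 gene rose and 11 fell of 28 tested, and in the libraries labelled Il1rl1-/- 1 rose and 12 fell of 29, beside 0.316% higher and 3.25% lower of all genes tested in WT and 0.974% and 3.88% in the other genotype. Most that fell were natural killer receptors, with Klrg1 at −3.80, Klrb1c at −3.75, Klrd1 at −3.63, and Klri2 at −3.56 on the log2 scale in WT. All 6 NK cell markers fell as well, Klrb1c being on both lists. In the other genotype the largest falls were those of Klrb1b, Klrb1c, Klrg1, and Klre1 (−6.52 to −4.74). Cd302 rose in WT (1.72) and Cd93 in the other genotype (1.28). Between genotypes, Mgl2 was the only one of the list called, in pre-RPMs, at 0.665 ± 0.510 CPM in WT and 2.84 ± 0.207 CPM in the libraries labelled Il1rl1-/- (mean ± SD, n = 4; log2 fold change 2.00, SE 0.43, adjusted p = 0.0462 in edgeR). In the same comparison, 3 of 10 markers of type 2 and other dendritic cells, a list that holds Mgl2, were higher, as was 1 of 11 monocyte markers. Lower were 3 of 5 tested NK cell markers, 1 of 2 tested basophil and mast cell markers, and 1 of 5 B cell markers. The part of these cells was not tested. Clec10a, the neighbour and sequence relative of Mgl2, had 7.37 and 10.3 CPM in the same pre-RPM groups, not called.

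Downstream of the activating receptors, Card9 fell in RPMs while Syk and the Fc receptor gamma chain were not called. Of 23 signaling genes, all tested, 2 rose and 6 fell in both genotypes, and they were the same 8 genes. Of all genes, 24.7% were called in WT (14.0% higher, 10.7% lower) and 26.0% in the other genotype (14.5% higher, 11.5% lower). Card9, the adaptor that links Syk to NF-kB, lay between 33.8 and 51.8 CPM in the 4 WT pre-RPM libraries and between 0.412 and 4.19 CPM in the 4 WT RPM libraries. In the other genotype it lay between 47.8 and 53.9 CPM in pre-RPMs and between 1.47 and 3.59 CPM in RPMs. The groups were far apart in both, and the log2 fold change was −4.10 (SE 0.31, adjusted p = 8.38e-08 in edgeR) and −4.37 (SE 0.18, adjusted p = 2.04e-11 in edgeR). Bcl10 and Malt1, which form a complex with Card9, Prkcd, the kinase that acts on it, Plcg2, a phospholipase, and Map3k14, the NF-kB-inducing kinase, also fell. Prkcd changed by −2.34 and −2.56 on the log2 scale, Malt1 by −1.67 and −1.74, and Plcg2 by −1.48 and −1.87. In both genotypes, all 9 neutrophil markers tested and 10 of 11 monocyte markers were also lower in RPMs, with 1 monocyte marker higher. The part of these cells in the falls of Card9 and the other signaling genes was not tested. Blnk, a B cell linker adaptor, rose from 4.72 to 38.1 CPM in WT and from 1.88 to 34.7 CPM in the other genotype, and Fyn, a Src-family kinase, rose by 1.33 and 1.46 on the log2 scale. The summed CPM of T cell markers went from 20.5 to 65.3 in WT and from 14.8 to 51.4 in the other genotype. Lck was the most abundant of them in pre-RPMs (9.13 and 3.79 CPM) and Cd4 in RPMs (27.0 and 32.3 CPM). T cell markers were higher for 3 of 4 and 1 of 4 tested, and their part in the rise of Fyn was not tested. Syk had 305 ± 12.6 CPM in WT pre-RPMs and 288 ± 18.99 CPM in WT RPMs, and Fcer1g, the gamma chain that Clec4n and Clec4e need, had 156 ± 24.4 and 162 ± 10.2 CPM (mean ± SD, n = 4). Tyrobp had 176 and 91.6 CPM (log2 fold change −0.94, adjusted p = 1.15e-05 in edgeR), below the fold threshold. Ptpn6 and Ptpn11, the phosphatases recruited by the inhibitory receptors, had −0.66 and −0.72 in WT, also below it. The median over the list was −0.50 in WT and −0.47 in the other genotype. From monocytes to pre-RPMs, only Fyn was called, lower in both genotypes (−1.71 and −1.75), so the count of 1 of 23 lay near the 3.57% and 4.85% of all genes called. Fyn is also used by NK and T cells. All 6 NK cell markers and 1 of 4 tested T cell markers fell in the same comparison, and their part was not tested. Between genotypes edgeR called 0 of 23 in each cell type.

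**Figure D5:**
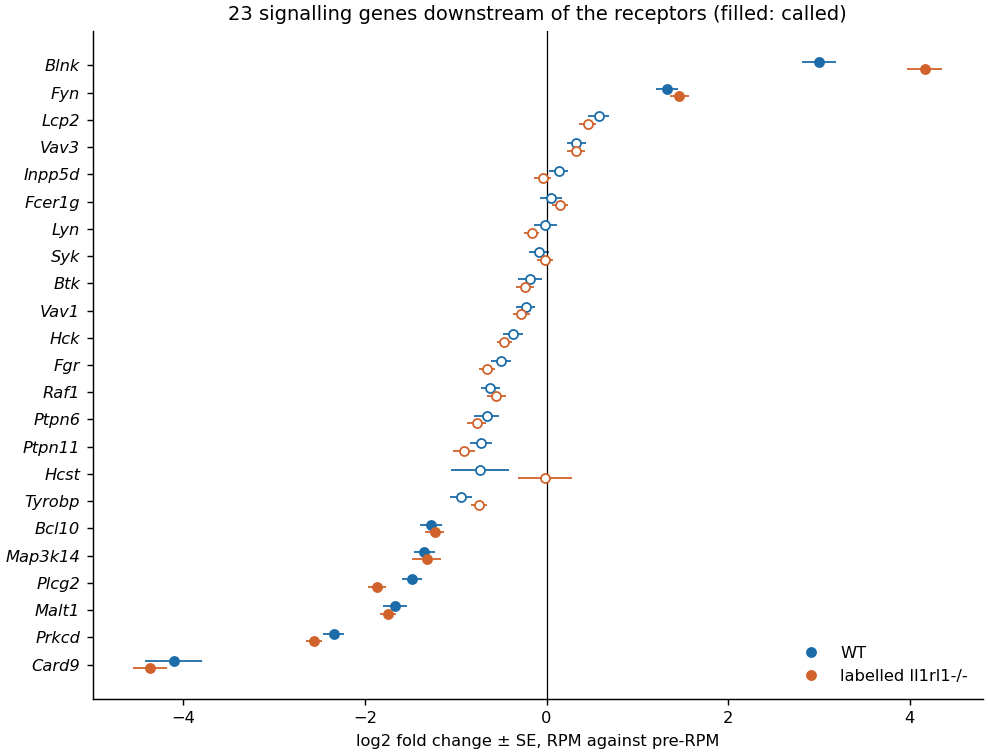
Log2 fold change ± SE (x axis) of 23 signaling genes (y axis) in RPMs against pre-RPMs, in WT and in libraries labelled Il1rl1-/-. Filled points passed the call rule: Card9 is the lowest in both genotypes, Blnk the highest, and Syk and Fcer1g lie near 0.

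Among 22 genes that these receptors are known to induce or use, chiefly cytokines and NF-kB and NFAT factors, 10 were high enough to test between RPMs and pre-RPMs. In WT, 3 fell and 0 rose of 10, beside 10.7% lower and 14.0% higher of all genes tested (24.7% in either direction). They were Rel (−1.56, SE 0.13), Tnf (−1.32, SE 0.32), and Nfkb1 (−1.30, SE 0.11). Under the other label, Tnf (−2.05), Rel (−1.63), Nfkb1 (−1.47), and Nfatc2 (−1.30) fell of 10 tested, and 0 rose. Of all genes, 11.5% were lower and 14.5% higher (26.0% in either direction). From monocytes to pre-RPMs, the chemokine genes Ccl3 and Ccl4 and the factor Egr3 fell in both genotypes, with log2 fold changes from −3.12 to −2.03, and 0 rose. They were 3 of 14 tested in WT and 3 of 13 in the other genotype, where 3.25% and 3.88% of all genes were lower. Ccl3 and Ccl4 are also made by NK cells, whose markers fell in the same comparison, and their part was not tested. Between genotypes, edgeR called 0 in each cell type.

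Genes with a like pattern over the 24 libraries were named by their Pearson correlation of log2 CPM, as a description, since the libraries share cell types. Clec7a ran most closely with Plac8 (r = 0.995), Ldlrad3 (r = 0.992), and Ms4a6b (r = 0.992), and Clec4n with Maf (r = 0.993), Gna12 (r = 0.989), and Slc7a8 (r = 0.989). For Clec4e the nearest were Csgalnact2 (r = 0.982), Msrb1, and Arl11, and for Clec10a Eps8 (r = 0.982), Samd9l, and Olfm1. Clec4a1 was nearest to its neighbour Clec4a3 (r = 0.960), and then to Cyfip1 and Stom. Clec4a3 was nearest to Lst1 (r = 0.976), Fgr, and Pld4, and Clec12a to Fgr (r = 0.964), Pld4, and Clec4a3. Clec4a2 was nearest to Nckap1l (r = 0.962), Ptprj, and Ctnnd1. The scarce Clec9a (Macf1, r = 0.869, then Cd209d and Med13) and Clec4d (1110059G10Rik, r = 0.751, then Rbm43 and Mpc1) had less close neighbours.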

How the data were processed

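The authors trimmed read pairs of stranded total RNA libraries (SMARTer pico kit), aligned them with STAR 2.5.1 to the mouse genome, and deposited raw counts per gene from featureCounts 1.6.2, counted over exons by strand without multi-mapping reads. 24 ATAC-seq samples of the series were not analysed here. Groups came from the labels. CPM were scaled with TMM factors over 24 libraries (0.783 to 1.37). A single transcript, Gm42418, held 24.4% to 38.8% of each library's counts. Each comparison was fitted on its own groups with edgeR 4.0.16 (quasi-likelihood test, 2-sided, genes kept by filterByExpr, p adjusted over all of them by Benjamini-Hochberg) in R 4.3.3. The call rule was an adjusted p under 0.01 with an absolute log2 fold change above 1 between cell types and an adjusted p under 0.05 between genotypes and for interactions. SE was derived from the F statistic. Log2 CPM used a prior count of 2. Members, gene lists, and tests were chosen with earlier results of these data known.

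Genes named were the 10 members, Il1rl1, up to 4 called genes per list, comparison, and direction with the largest fold and no overlap, the 3 most correlated genes per member, and each marker list's most abundant gene. Genes outside this rule (Syk, Fcer1g, Tyrobp, Ptpn6, Ptpn11, Map3k14, Bcl10, Xcr1, Ccr2, Cd209a, Epx, Prg3, Cd302 and Klrc1 where cited beyond it, and cluster neighbours) were chosen after their values were seen. Replicates differed by more than sampling noise (lowest chi-square per degree of freedom 3.85 over 36 pairs). The labels give the same mouse number to the 3 cell types of a genotype, so within a genotype the numbers pair animals. The lowest correlation of same-numbered deviations was −0.04 for WT pre-RPMs and monocytes, 0.06 for WT RPMs and pre-RPMs, and 0.13 and 0.09 for the same comparisons in the other genotype. Alternatives were DESeq2 1.42.0, RLE factors, no filter on low counts, a single fit of 24 libraries, the mouse as a replicate block, each library left out, and 2 sets of libraries left out after the data were seen. Figures were drawn with matplotlib 3.10.9.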

Additional observations from a re-analysis of the deposited data

Results flagged for a closer look

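In 56 sets of 4 values, 1 per gene and group, 2 had a library far from the other 3 by Dixon's ratio at its 95% critical value, where chance gives about 1 in 20. Clec4a3 was at 74.8 CPM in the WT pre-RPM library of mouse 3, against 57.1 to 57.7 CPM in the others (ratio 0.964). That library also held the most erythroid and RPM marker counts of its group, and their part was not tested. Clec4n was at 2.48 CPM in the monocyte library of mouse 4 labelled Il1rl1-/-, from 12 counts, against 4 to 5 counts in the others (ratio 0.927).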

How the results depend on the processing

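For the 20 member results called in at least 1 setting, 285 values under alternatives were computed, of which 255 kept their direction and side of the threshold, 22 became called, 8 lost the call, and 0 reversed. Over all 90 pairs of member and comparison, the sign of the log2 fold change differed between settings for 23, none called in any setting, 20 of them between genotypes or interactions. The other 3 were Clec9a in WT RPMs against pre-RPMs (−0.53 to 0.18), Clec10a in WT pre-RPMs against monocytes (−0.14 to 0.30), and Clec4d in pre-RPMs against monocytes labelled Il1rl1-/-. The calls of Clec7a, Clec4n, Clec4e, and Clec10a between RPMs and pre-RPMs held under every alternative run. Members called in WT pre-RPMs against monocytes went from 0 to 4 without a filter on low counts (Clec4a3, Clec7a, Clec12a, Clec9a) and to 1 in a single fit of 24 libraries (Clec12a). Over all genes, these settings called 1094 of 30658 and 772 of 12842. In the libraries labelled Il1rl1-/-, members called went from 0 to 2 with DESeq2 (Clec4a1, Clec4a3), 1 without the filter (Clec4a3), and 2 with the replicate block. There the calls over all genes were 743 of 30420, 1060 of 30423, and 751 of 11196. Clec9a between RPMs and pre-RPMs labelled Il1rl1-/- lost its call with DESeq2 (adjusted p = 0.0137) and in the single fit (adjusted p = 0.0361). Clec4d in WT gained one without the RPM library of mouse 4. With a library left out, members called between pre-RPMs and monocytes ranged from 0 to 6 in WT and 0 to 3 in the other genotype, between RPMs and pre-RPMs from 4 to 5 in both, and were 0 elsewhere.

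Over all genes, the calls between WT pre-RPMs and monocytes (396) became 694 with DESeq2, 1094 without the filter, and 772 in the single fit. In the other genotype (543) they became 1060 without the filter and 321 without the monocyte libraries of mice 1 and 2. Between genotypes, monocytes (7) gave 26 with DESeq2, 139 without the filter, 16 in the single fit, and 27 with the replicate block. Pre-RPMs (59) gave 265 without the filter, 17 in the single fit, and 145 with the block. RPMs (26) gave 60 with DESeq2, 272 without the filter, 81 with the block, and 83 without the erythroid-rich libraries. The interaction from monocyte to pre-RPM (0) gave 78 without the filter, and that from pre-RPM to RPM (13) gave 36 with DESeq2, 224 without the filter, 3 in the single fit, 36 with the block, and 23 without the erythroid-rich libraries. With a library left out, counts over all genes ranged from 169 to 1041 and 336 to 813 for pre-RPMs against monocytes in WT and the other genotype, 2686 to 2872 and 2964 to 3092 for RPMs against pre-RPMs, 1 to 8, 37 to 68, and 19 to 38 between genotypes in monocytes, pre-RPMs, and RPMs, and 0 and 10 to 18 for the interactions. The causes were not tested.

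Between genotypes the same number marks different animals. Same-numbered deviations correlated there at 0.12 to 0.45 in monocytes, 0.05 to 0.15 in pre-RPMs, and 0.15 to 0.18 in RPMs, each above 0.1 in monocytes and RPMs. The block changed no other member's call. Depth limits Clec4d, Clec4e, Clec10a, and Clec9a, whose RPM libraries held 22 counts or fewer.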
